A study of Taeniopygia guttata with 2 samples.

Results

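The genes described here are the FOX, GATA and SOX genes of the embryonic gonad of the zebra finch, except SOX3, SOX9, SOX10 and SOX18. They were chosen by their symbols alone: FOX followed by a letter, GATA followed by a single digit, or SOX followed by a digit. Of 20511 genes in the count table, 46 met this rule, 32 of them FOX, 5 GATA and 9 SOX. FOXRED1 and FOXRED2 met it by their letters only. They encode oxidoreductase domain proteins, an assembly factor of mitochondrial complex I and a protein of the endoplasmic reticulum, and not forkhead factors. A further 9155 genes of the table carry no symbol and were not searched.

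Embryos at Hamburger Hamilton stage 28 were sexed, the gonads of 7 of each sex were pooled and digested with trypsin, and each pool gave 1 single-cell library on the 10x Chromium system with 3′ chemistry. The labels name no treatment, so the groups differ in sex and, with 1 library each, in library at once. Sex and library cannot be told apart, and male and female values have no replicate spread to be compared with. The sex of each library was taken from the suffix of its barcodes as the study names its batches, since the labels do not give that order.

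The 3 families bind DNA through different folds and are best known as regulators of cell identity. GATA factors bind the short motif they are named for through zinc fingers and act with FOG cofactors, encoded by ZFPM1 and ZFPM2, or with LMO2 and TAL1 in blood and vessel cells. Forkhead (FOX) factors bind through a winged helix, and the FOXO group leaves the nucleus when insulin signalling is active. SOX factors bend DNA through an HMG box and are grouped by sequence. SOX8, SOX9 and SOX10 are in 1 group and SOX5, SOX6 and SOX13 in another. SOX11, SOX17, SOX21 and SOX30 fall into further groups that differ from each other. In gonads GATA4, FOXL2 and SOX9 are the textbook examples, for the early genital ridge, the ovary and the testis of mammals.

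The male library held 124217899 distinct molecules (UMIs) and the female library 98701138. Barcodes with at least 2000 UMIs were taken as cells, 9461 male with a median of 9027 UMIs and 7593 female with a median of 9126. The 17054 cells formed 22 clusters, which were named from 76 markers found in the table. None of the 46 genes was used to draw or to name a cluster. The classes were epithelial-like (5408 cells), interstitial-like (3825), supporting-like (3130), germ cell-like (1241), endothelial-like (637), erythrocyte-like (473), steroidogenic-like (199), macrophage-like (191) and neural crest or neuroendocrine-like (185). In each of these at least 3 markers of the class were raised, from 3 of 7 in 1 of the supporting-like clusters to 11 of 11 in the macrophage-like class. A cluster of 1188 cells led by CYP17A1 had as many supporting as steroidogenic markers raised, and 211 cells led by SLC12A1, with a median of 2579 UMIs, had fewer than 3, so both stayed unnamed. These 11 classes had at least 20 cells in each library and were compared. A cluster of 273 cells led by PRSS35 (262 of them male) and 93 mesonephric tubule-like cells, all male, were not tested.

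Levels are given as CPM, the UMIs of a gene scaled to a fixed total of UMIs per class and library, with 95% exact Poisson intervals, which cover counting error only. Where a pair of levels is given for a class or cluster without naming the libraries, the female value comes first. For the comparison of classes, UMIs were summed per library and class, and each class was set against the mean of the other classes with edgeR's quasi-likelihood test and Benjamini-Hochberg adjustment over 13337 genes, with an adjusted p of at most 0.05 as the call. The spread in this test is that between the 2 libraries. The classes came from the same cells, so the calls describe the classes. Since 3′ counts depend on the end of each transcript, levels were not compared between genes. Free RNA is that of barcodes with at most 100 UMIs. From hemoglobin UMIs it was allowed at most 12.6% of the UMIs of any class and library other than the erythrocyte-like. A cell level below that of free RNA is therefore not by itself background.

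FOXB2 and FOXI1 had no UMI in any cell, 5 genes (FOXA1, FOXB1, FOXL1, FOXN1 and FOXN4) had 1 to 5 UMIs in all, and 24 had at least 1000. GATA6 gave 37752 UMIs, SOX11 gave 22585 and GATA5 gave 20453. The filter on low sums was passed by 32 genes. In the comparison of classes 30 genes were higher in at least 1 class, 8 of them in exactly 1, and 19 were lower in at least 1 class. Single classes called from 9.39% to 36.2% of all tested genes higher. The share of all tested genes called in at least 1 class was not counted, so these counts are not read as high or low. FOXQ1, SOX21 and FOXD3 are among the 8, and each passed the filter through the class in which it was called. FOXC1, with 73 UMIs, was tested and called in no class. Besides the genes with at most 5 UMIs, those that did not pass the filter included FOXJ1 with 72 UMIs, FOXD2 with 58, FOXL2 with 33, FOXF1 with 27, SOX14 with 15 and FOXA2 with 14. The plot of all genes with at least 100 UMIs shows each gene's level by class and library.

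**Figure D1:**
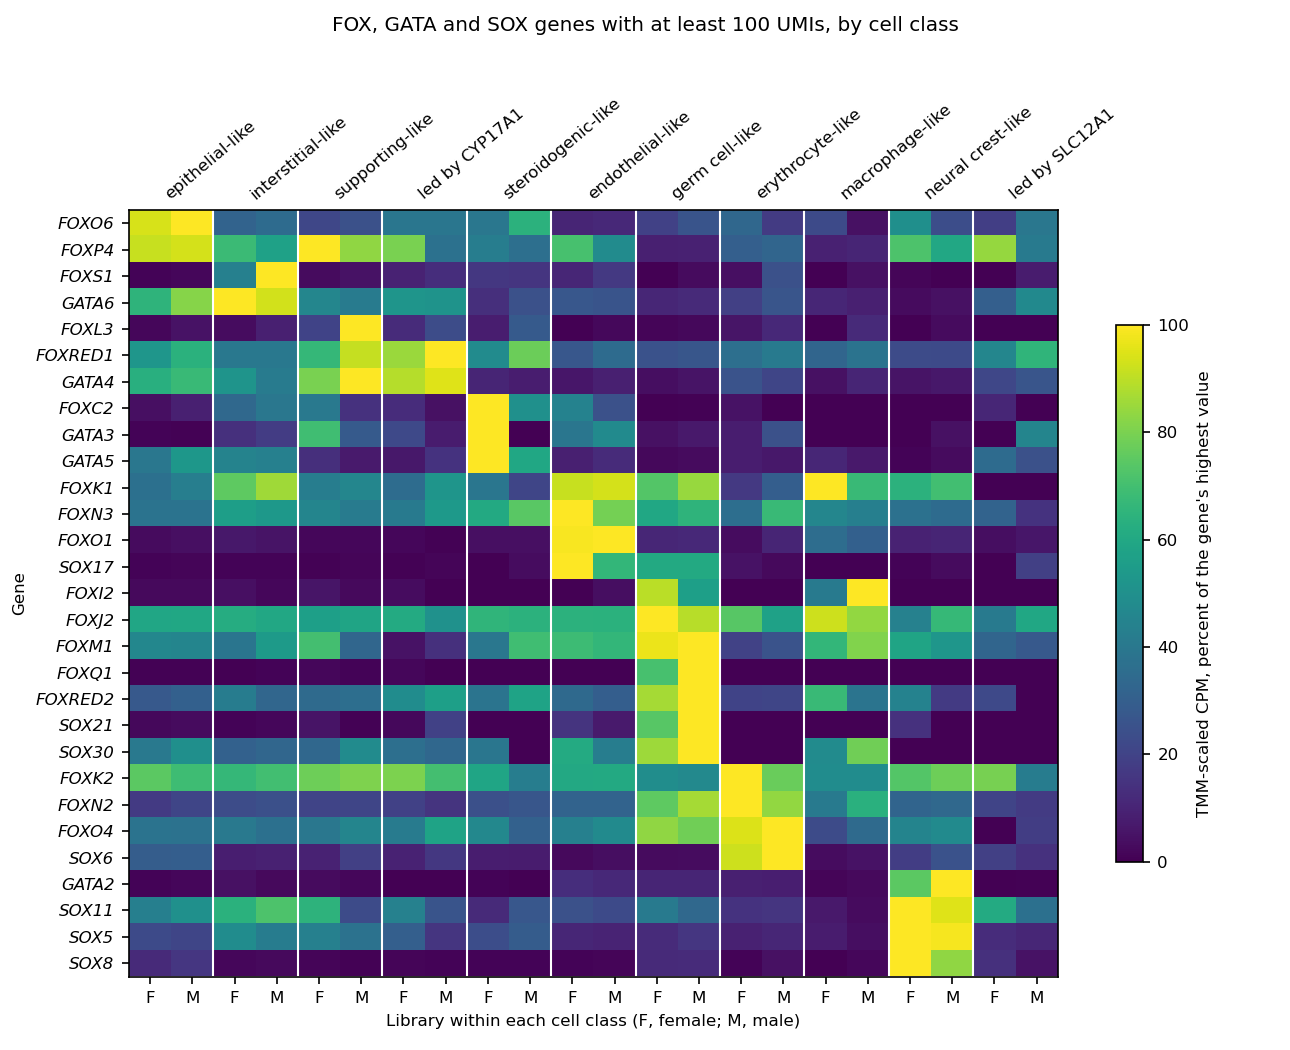
Level of the 29 genes with at least 100 UMIs (rows) in the female (F) and male (M) library of 11 cell classes (columns), as percent of the gene's own highest value, after TMM scaling. Genes are grouped by the class with their highest mean level, and the F and M columns of a class are mostly alike, with FOXS1, FOXL3 and GATA3 among the exceptions.

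The counts per class are given beside the share of all tested genes called there. Only 32 of the 46 genes were tested, while the shares are over tested genes, so the counts are not read as above or below them. FOXQ1, SOX21 and FOXI2 passed the filter through the germ cell-like class and FOXD3 through the neural crest or neuroendocrine-like class. They are in the counts of these classes, to which their calls add no support. In the germ cell-like class 15 of the 46 genes were higher and 9 lower, where 36.2% of all tested genes were higher and 22% lower. In the endothelial-like class 10 were higher and 6 lower, beside 18.2% and 10.8% of all genes. The neural crest or neuroendocrine-like class had 9 higher and 4 lower, beside 17.8% and 10.9%. In the epithelial-like class 9 were higher and 2 lower, beside 16.7% and 6.01%. In the interstitial-like class 9 were higher and 1 lower, beside 19.3% and 7.5%, and with the library as a block 3 were lower. The supporting-like class had 8 higher and 3 lower, beside 15.5% and 5.94%. The cluster led by CYP17A1 had 4 higher and 5 lower, beside 15.6% and 8.27%. Macrophage-like cells had 4 higher and 6 lower, beside 16.8% and 13.6%. The erythrocyte-like class had 4 higher and 1 lower, beside 15.5% and 12.4%. In the steroidogenic-like class 3 were higher and 3 lower, beside 11.9% and 5.64%, and with the library as a block 7 and 4. The cluster led by SLC12A1 had 2 higher and 4 lower, beside 9.39% and 9.8%. Over the tested members the median log2 difference lay between -0.96 in the macrophage-like class, beside -0.16 over all genes, and 0.33 in the supporting-like class, beside 0.12. Which genes were called in which class is given by family.

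GATA4, GATA5 and GATA6, the GATA genes of heart, gut and gonad, were each raised in epithelial-like and interstitial-like cells and differed in other somatic classes. GATA4 and GATA6, but not GATA5, were also called higher in supporting-like cells and in the cluster led by CYP17A1. All 3 were lower in germ cell-like and in neural crest or neuroendocrine-like cells. GATA4, which is needed for the genital ridge of the mouse, reached 137 CPM (129.8 to 145) in female and 168 CPM (162 to 173) in male supporting-like cells. In the cluster led by CYP17A1 it was at 145 (female) and 166 CPM (male), and in epithelial-like cells at 109 and 122 CPM. Interstitial-like cells had 88.2 and 72.0 CPM. Every other tested class lay below 40 CPM in both libraries, so these 4 classes did not overlap with the rest. The log2 difference from the mean of the other classes was 2.38 ± 0.13 (SE) in the supporting-like class (adjusted p = 1.32e-09), 2.41 ± 0.14 in the cluster led by CYP17A1 (1.76e-09), 1.88 ± 0.13 in epithelial-like cells (2.05e-08) and 1.34 ± 0.14 in interstitial-like cells (1.08e-06), by edgeR. GATA4 fell by 2.40 ± 0.19 in germ cell-like cells (1.52e-08, edgeR), where it was at 7.10 and 10.5 CPM. It was at 65.4 and 76.8 CPM in the free RNA of the female and the male library. Free RNA was allowed at most 1.05% and 6.79% of the UMIs of germ cell-like cells.

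GATA5 had its highest level in steroidogenic-like cells, with 429 CPM (396 to 463) in the 158 female and 274 CPM (225 to 331) in the 41 male cells. It followed in epithelial-like cells with 171 and 238 CPM and in interstitial-like cells with 191 and 189 CPM. The libraries of epithelial-like and interstitial-like cells overlapped in level, and all lay below both steroidogenic-like levels. The male epithelial-like level of 238 CPM lay inside the male steroidogenic-like interval of 225 to 331 CPM. The log2 difference was 2.94 ± 0.24 in the steroidogenic-like class (adjusted p = 6.79e-08, edgeR). Supporting-like cells, with 58.6 and 30.3 CPM, were not called for GATA5. In the same steroidogenic-like cells GATA4 fell by 1.13 ± 0.25 (adjusted p = 0.004, edgeR), to 18 and 15.1 CPM, so the GATA4 and GATA5 orders of classes crossed there.

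GATA6 was highest in interstitial-like cells, at 383 CPM (372 to 394) in female cells and 363 CPM (355 to 372) in male cells. Epithelial-like cells followed with 252 and 329 CPM, then the cluster led by CYP17A1 with 191 and 201 CPM and supporting-like cells with 178 and 157 CPM. The interstitial-like libraries lay above all other tested classes. The log2 difference of GATA6 was 2.13 ± 0.13 in interstitial-like (adjusted p = 1.3e-09) and 1.69 ± 0.13 in epithelial-like cells (5.61e-08), and it fell by 3.06 ± 0.25 in neural crest or neuroendocrine-like cells (2.88e-08), by edgeR. Endothelial-like cells kept 97.2 and 95.5 CPM of GATA6 and were not called, against 142 and 167 CPM in free RNA.

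Within the epithelial-like and interstitial-like classes GATA5 differed between clusters in both libraries. In epithelial-like cluster 1, led by TNC and RIPK4 among genes with a symbol, GATA5 was at 85.4 and 184 CPM, and in cluster 3, led by SEMA3E and WNT2B among genes named here, at 332 and 361 CPM. In interstitial-like cluster 2, led by TMEM100 and SNAI1, it was at 78.0 and 101 CPM, and in cluster 5, led by ACTA2 and COL12A1, at 336 and 354 CPM. GATA6 showed the same order in the interstitial-like clusters, with 309 and 306 CPM in cluster 2 and 511 and 534 CPM in cluster 5. In each of these cases the counting intervals of the clusters did not overlap in either library, and no test was run between clusters.

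**Figure D2:**
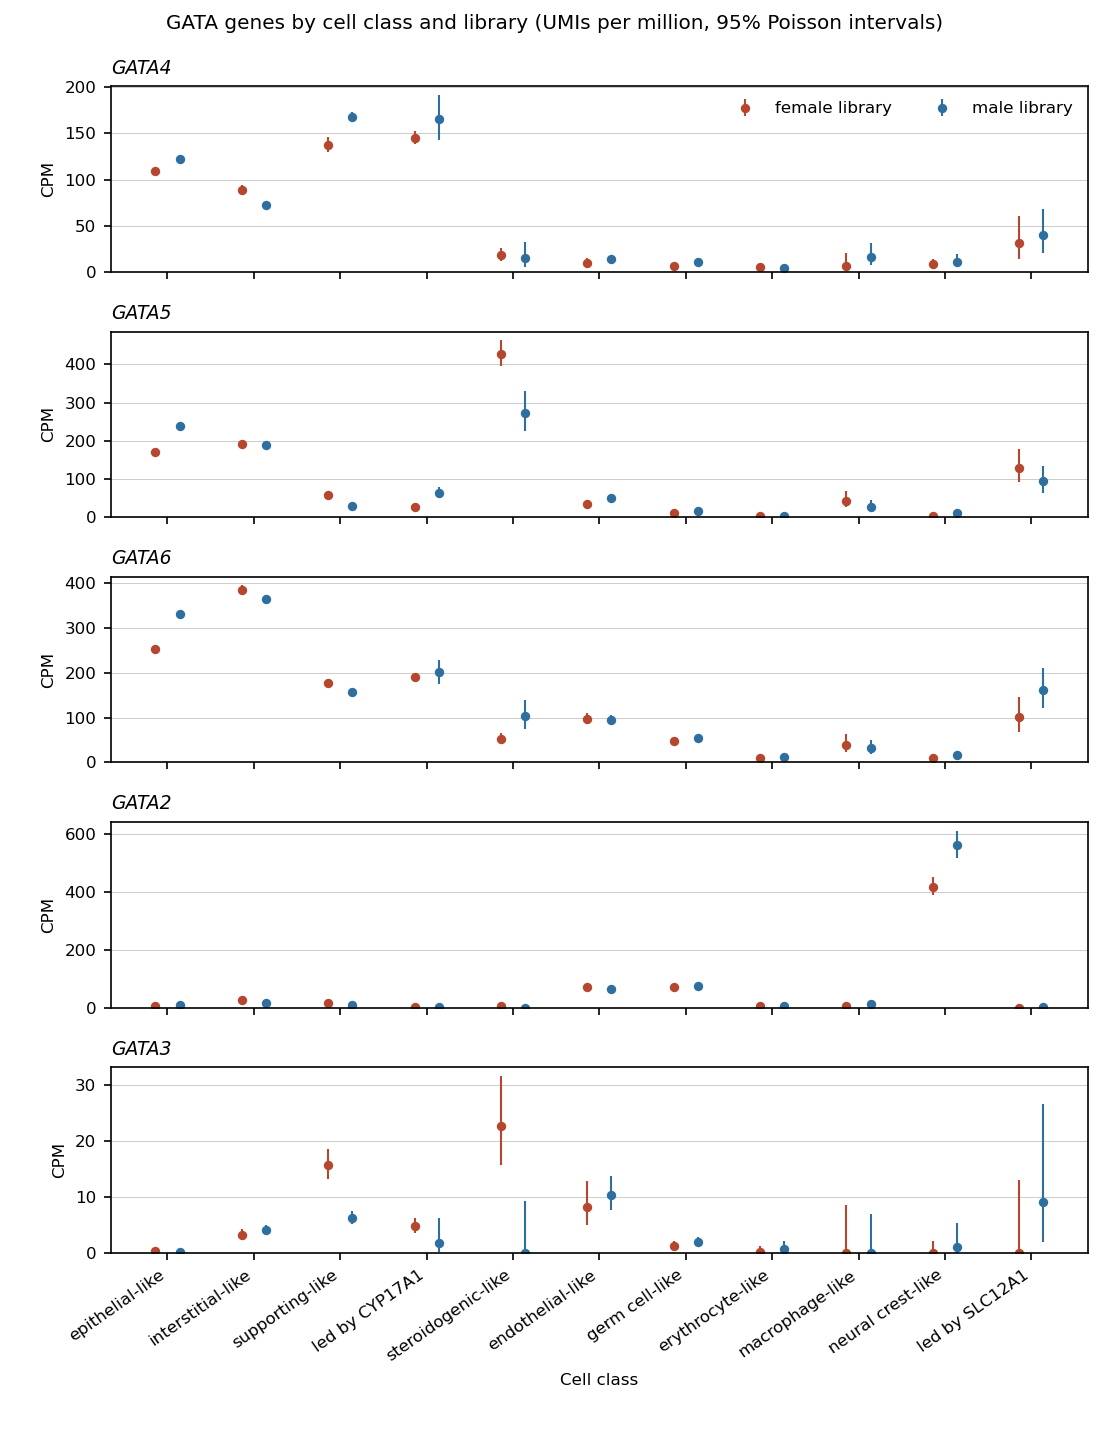
CPM (vertical axis, starting at 0) of 5 GATA genes in 11 cell classes (horizontal axis), with 1 point per library and 95% exact Poisson intervals. GATA4 is high in 4 somatic classes, GATA5 is highest in steroidogenic-like cells (429 and 274 CPM), GATA6 in interstitial-like cells (383 and 363 CPM) and GATA2 in neural crest or neuroendocrine-like cells (417 and 562 CPM).

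GATA2, a factor of blood stem cells, vessels and sympathetic neurons, marked other classes than GATA4, GATA5 and GATA6. It was at 417 CPM (387 to 449) in female and 562 CPM (517 to 609.9) in male neural crest or neuroendocrine-like cells. Germ cell-like cells had 71.9 and 74.0 CPM and endothelial-like cells 71.9 and 65.2 CPM, which overlapped. In the cluster led by CYP17A1 GATA2 was at 0.840 and 1.74 CPM, below its level in free RNA of 16.3 and 20.5 CPM. The log2 difference was 5.50 ± 0.19 in the neural crest or neuroendocrine-like class (adjusted p = 4.35e-13), 2.38 ± 0.24 in the endothelial-like (4.26e-07) and 2.14 ± 0.23 in the germ cell-like class (4.45e-07), and GATA2 fell by 4.42 ± 0.81 in the cluster led by CYP17A1 (0.000507), by edgeR. With free RNA subtracted, the last of these differences was -4.36 and its standard error could not be used. The loss of that call does not show a weaker fall.

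GATA3, known from T cells, sympathetic neurons and the nephric duct, was low in most classes. In female and male supporting-like cells it was at 15.8 and 6.25 CPM, in endothelial-like cells at 8.27 and 10.4 CPM, and in steroidogenic-like cells at 22.7 CPM in the female library with no UMI in the male library. All 3 classes passed the test (adjusted p = 0.00226, 0.00569 and 0.00462, edgeR). Among supporting-like clusters GATA3 was highest in cluster 7, led by PAX2 and WNT4, with 21.5 and 18.7 CPM in female and in male cells. In cluster 4, of which 1422 of 1495 cells were male, it was at 8.06 and 1.66 CPM.

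Among FOX genes, FOXO1 had a clear class of its own. FOXO1, which keeps endothelial cells quiescent in the mouse, was at 101 CPM (89.0 to 115) in female and 106 CPM (96.7 to 115) in male endothelial-like cells. Macrophage-like cells had 36.8 and 31.8 CPM and germ cell-like cells 13.8 and 15 CPM, without overlap between the 3 classes. The log2 difference was 4.15 ± 0.14 in the endothelial-like class (adjusted p = 2.88e-13) and 2.41 ± 0.27 in the macrophage-like class (1.38e-06), by edgeR. A FOXO1 UMI was found in 62.0% of 216 female (55.2 to 68.5, exact binomial) and 60.3% of 421 male endothelial-like cells, against 0.833% and 2.58% of erythrocyte-like cells, whose median of UMIs was higher (18773.5 and 18885, against 10691 and 10554). The TMM factors of the sums were 0.151 and 0.157 in erythrocyte-like and 1.13 and 1.17 in endothelial-like cells. For most genes the higher median is therefore not a higher depth. FOXO1 fell in supporting-like cells by 2.21 ± 0.24 (3.13e-06) and in the cluster led by CYP17A1 by 2.44 ± 0.30 (8.75e-06).

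FOXO1 was also called higher in germ cell-like cells (log2 difference 0.68 ± 0.18, adjusted p = 0.0037, edgeR). FOXO6 was at 41.2 and 45.7 CPM in epithelial-like cells, above every other tested class, and its log2 difference there was 1.90 ± 0.20 (adjusted p = 1.65e-06, edgeR). FOXO4 had its highest unscaled level in germ cell-like cells, with 73.3 (female) and 69.7 CPM (male), where it rose by 1.07 ± 0.16 on the log2 scale (adjusted p = 2.31e-05, edgeR). The steroidogenic-like, endothelial-like, supporting-like, epithelial-like and interstitial-like levels of FOXO4 lay between 25.2 and 35.3 CPM and overlapped.

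FOXC2, a factor of mesenchyme and vessels, and FOXS1, found in vessel-associated cells of the mouse, were both called in interstitial-like cells, as were FOXK1 and FOXP4. FOXS1 was at 19.7 CPM (17.3 to 22.3) in female and 46.2 CPM (43.2 to 49.2) in male interstitial-like cells and at most 7.55 CPM in any other tested class. The interstitial-like class was the only tested class called higher for FOXS1 (adjusted p = 8.4e-07, edgeR). FOXC2 was at 37.3 CPM (56 UMIs) in female and 20.1 CPM (8 UMIs) in male steroidogenic-like cells, at 12.6 and 15.1 CPM in interstitial-like, 15.3 and 8.92 CPM in endothelial-like, and 15.1 and 5.21 CPM in supporting-like cells. All 4 classes were called higher for FOXC2 (adjusted p = 2.73e-05, 0.000131, 0.000566 and 0.00156, edgeR), and FOXC2 had no UMI in macrophage-like and in neural crest or neuroendocrine-like cells. For genes with few or no UMIs in several classes, FOXC2 among them, the fitted fold depends on the small count edgeR adds, so it is not printed.

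FOXL2 and FOXL3 are of interest in a gonad. FOXL2, which maintains granulosa cells in mammals, had 33 UMIs in all cells, 30 of them in the female library. Of these, 17 UMIs lay in the 1068 female cells of the cluster led by CYP17A1, at 1.59 CPM (0.924 to 2.54), and none in its 120 male cells, which allows up to 2.62 CPM. FOXL2 did not pass the filter on low sums, and its levels in supporting-like cells were 0.457 and 0.0473 CPM. CYP19A1, the aromatase gene, was at 42.7 CPM in the same female cells and had no UMI in the male ones.

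FOXL3, which acts in the germ cells of medaka, had its highest level in male supporting-like cells here. It was at 32.4 CPM (30 to 34.9) in male and 6.62 CPM (5.03 to 8.56) in female supporting-like cells, and this was the 1 class called higher for FOXL3 (adjusted p = 2.55e-05, edgeR). The cluster led by CYP17A1 had 3.92 (female) and 7.85 CPM (male). Steroidogenic-like cells had 2.67 and 10.1 CPM, on 4 UMIs in each library. Both of these male levels lay above the female supporting-like level. Germ cell-like cells had 0.591 and 0.797 CPM, below the 2.48 and 6.85 CPM of free RNA. A FOXL3 UMI was found in 21.8% of 2218 male (20.1 to 23.6, exact binomial) and 5.59% of 912 female supporting-like cells, against 1.08% of male and 0.802% of female germ cell-like cells, which were deeper (medians of 15957 and 18469 UMIs, against 8907.5 and 8666.5). Thinned to 2000 UMIs per cell, the shares in supporting-like cells were 6.27% and 1.75%. The male cells led by PRSS35 had 22.9 CPM of FOXL3.

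FOXM1, which drives genes of the G2 and M phases, was higher in the dividing clusters given here and also differed between classes. In supporting-like cluster 12, where TOP2A was at 1074 (female) and 999 CPM (male), FOXM1 was at 63.5 and 58.5 CPM, against 2.74 and 5.45 CPM in cluster 7, with TOP2A at 17.7 and 21.8 CPM. Epithelial-like cluster 8 (TOP2A at 931 and 936 CPM) had 57.7 and 54.0 CPM of FOXM1, against 2.72 and 3.00 CPM in cluster 1. Interstitial-like cluster 9 (TOP2A at 910.3 and 1041 CPM) had 68.1 and 64.8 CPM, against 5.01 and 5.21 CPM in cluster 2. In all 3 classes the FOXM1 intervals of the dividing and the other cluster did not overlap in either library. As classes, germ cell-like cells (41.9 and 43.8 CPM, adjusted p = 3.77e-05) and endothelial-like cells (23.6 and 23.5 CPM, 0.0302) were called higher by edgeR. TOP2A was at 269 and 250 CPM in germ cell-like and at 222 and 263 CPM in epithelial-like cells. The epithelial-like class had 17.2 and 17.6 CPM of FOXM1. The endothelial-like call, with a log2 difference of 0.76, was lost with at least 1000 UMIs per cell (0.20, adjusted p = 0.446), with at least 4000 (0.67, 0.0579) and with DESeq2 (0.71, 0.0794). The cluster led by CYP17A1, where TOP2A was at 12.2 and 31.4 CPM, fell by 2.93 ± 0.40 (2.45e-05), to 1.77 and 5.23 CPM.

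The other FOX genes were found in most classes. FOXK2 was called higher in no class and lay between 24.3 and 51.9 CPM in the tested classes other than the erythrocyte-like. FOXJ2 was called in germ cell-like cells only, at 80.7 and 73.0 CPM (log2 difference 0.62 ± 0.12, adjusted p = 0.000242, edgeR). FOXN2 also had its highest unscaled level there, at 68.8 and 80.2 CPM (1.48 ± 0.12, 1.85e-08). FOXN3, a checkpoint factor, was called higher in endothelial-like cells, at 198 and 162 CPM (0.99 ± 0.15, adjusted p = 5.03e-05, edgeR). It was also called in germ cell-like cells, at 148 and 164 CPM, with a log2 difference of 0.42. That call was lost with at least 1000 UMIs per cell (0.24, adjusted p = 0.162) and with at least 4000 (0.32, 0.067, edgeR). Steroidogenic-like cells had 130 and 171 CPM of FOXN3 and were not called. FOXK1 was called in endothelial-like, germ cell-like, interstitial-like, macrophage-like and neural crest or neuroendocrine-like cells, with 26.6 to 44.2 CPM, and had no UMI in the cluster led by SLC12A1, which allows up to 10.6 (female) and 9.13 CPM (male). The FOXK1 log2 difference in neural crest or neuroendocrine-like cells, 1.40, was 0.27 with at least 1000 UMIs per cell (adjusted p = 0.296) and 0.37 with at least 4000 (0.195, edgeR). In macrophage-like cells it was 0.58 and 0.71 in place of 1.75, and that call was lost as well. Neither setting had a cluster led by SLC12A1, the class without a FOXK1 UMI, among the classes compared. Over all alternatives the lowest FOXK1 difference was 0.83 in place of 1.92 in endothelial-like and 0.57 in place of 1.67 in germ cell-like cells. In interstitial-like cells it was 0.62 in place of 1.71, and these classes kept their calls. FOXP4, a repressor, was at 134 and 109 CPM in supporting-like and 123 and 131 CPM in epithelial-like cells, against 13.6 and 14.7 CPM in germ cell-like cells, where it fell by 2.47 ± 0.25 (adjusted p = 2.14e-07, edgeR). In the cluster led by CYP17A1 FOXP4 was at 102 (female) and 50.6 CPM (male). It passed the test there with a log2 difference of 0.58 ± 0.20 (adjusted p = 0.0417, edgeR), and the call rested on the female library: without it the difference was -0.07.

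The non-forkhead FOXRED genes had patterns of their own. FOXRED1 was highest in the cluster led by CYP17A1, at 85.3 and 107 CPM (log2 difference 1.14 ± 0.15, adjusted p = 1.38e-05, edgeR), and in supporting-like cells, at 70.2 and 94.1 CPM. FOXRED2 was called in germ cell-like cells only, with 36.7 and 42.9 CPM (1.56 ± 0.21, 7.4e-06).

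SOX17, a factor of arterial endothelium in the mouse and of early primordial germ cells in humans, marked both of these cell types here. It was at 67.0 CPM (57.1 to 78.1) in female and 45.7 CPM (39.8 to 52.1) in male endothelial-like cells and at 51.0 CPM (46.3 to 56.0) and 51.7 CPM (47.6 to 56.1) in germ cell-like cells. The endothelial-like and germ cell-like levels overlapped, and no other tested class passed 12.2 CPM, a value that rests on 4 UMIs in the cluster led by SLC12A1. Both classes were called (adjusted p = 2.82e-10 and 7.15e-10, edgeR). A SOX17 UMI was seen in 50.5% of 499 female and 45.8% of 742 male germ cell-like cells but in 21.8% and 20.9% of endothelial-like cells. Thinned to 2000 UMIs these shares were 11.2% and 7.82% against 9.72% and 7.60%, so the gap between the classes was smaller at equal depth. Erythrocyte-like cells had a SOX17 UMI in 0.833% and 0.429%, with the limit on their depth given for FOXO1.

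SOX8, of 1 group with SOX9 and SOX10, was at 193 CPM (173 to 215) in female and 162 CPM (138 to 189) in male neural crest or neuroendocrine-like cells (log2 difference 5.13 ± 0.19, adjusted p = 1.32e-12, edgeR). It was at 25 and 34.2 CPM in epithelial-like and 28.3 and 29.9 CPM in germ cell-like cells, both called higher (1.15e-06 and 1.23e-06). In supporting-like cells, the class in which SOX9 was a marker, SOX8 fell by 2.14 ± 0.34 (0.000182), to 2.51 and 1.51 CPM. Within epithelial-like cells it was at 32.9 and 47.1 CPM in cluster 1 and at 12.2 and 12.1 CPM in cluster 3.

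SOX5 and SOX6, of 1 group and often paired in cartilage, were both called in neural crest or neuroendocrine-like cells and differed in other classes. SOX5 was at 151 and 150 CPM in neural crest or neuroendocrine-like, 77.9 and 68.7 CPM in interstitial-like and 70.3 and 59.4 CPM in supporting-like cells, which were all called higher (log2 difference 2.53 ± 0.16, adjusted p = 8.98e-10, 1.29 ± 0.15, 5.2e-06, and 1.11 ± 0.16, 5.17e-05, edgeR). SOX6 was at 108 and 113 CPM in epithelial-like cells (1.48 ± 0.17, 6.55e-06), where SOX5 had 36.3 and 35 CPM and was not called. In neural crest or neuroendocrine-like cells SOX6 was at 61.4 and 86.4 CPM (0.97 ± 0.22, adjusted p = 0.00229, edgeR). Epithelial-like cluster 3 had 210.0 and 192 CPM of SOX6 and cluster 1 had 50.1 and 64.7 CPM.

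In erythrocyte-like cells SOX6, needed for the maturation of red cells in the mouse, was at 41.4 and 46.7 CPM. The hemoglobin genes HBAD and HBAA led this class. The TMM factors of its sums were 0.151 and 0.157, which puts SOX6 at 275 and 297 CPM after scaling. The log2 difference was 3.35 ± 0.18 (adjusted p = 7.14e-11, edgeR). Without TMM it was 0.38 ± 0.21 (0.113), while the median of all genes in this class moved to -3.05. The smaller rises of GATA2, FOXN2 and FOXO4 in erythrocyte-like cells, of 1.79, 1.69 and 1.36 on the log2 scale, turned to falls without TMM.

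SOX11, of a group known from neural and mesenchymal progenitors, was widely present. It was at 272 and 261 CPM in neural crest or neuroendocrine-like cells (log2 difference 1.83 ± 0.26, adjusted p = 2.69e-05, edgeR) and at 184 and 212 CPM in interstitial-like cells (1.25 ± 0.25, 0.000924). Macrophage-like cells, with 18.4 and 7.47 CPM, were called lower. In supporting-like cells SOX11 was at 188 (female) and 64.7 CPM (male), and the class was not called.

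Several low genes had most of their UMIs in germ cell-like cells. FOXQ1 had 41 female and 78 male of its 130 UMIs there, at 4.85 and 6.91 CPM. SOX21, of a group that also acts in neural progenitors, had 64 and 117 of 215, at 7.57 and 10.4 CPM, and FOXI2 had 53 and 45 of 124, at 6.27 and 3.99 CPM. These 3 genes passed the filter on low sums through the germ cell-like sums in which they are high, so their calls in this class add nothing to these levels. SOX30, which acts in spermatids of the mouse, was more widely spread. It had 43 and 68 of its 409 UMIs in germ cell-like cells, at 5.09 and 6.02 CPM (adjusted p = 8.36e-05, edgeR), and was also called in endothelial-like and epithelial-like cells. FOXI2 was also called in macrophage-like cells, on 4 UMIs. SOX13 was called on few UMIs in endothelial-like cells (3.72 and 2.91 CPM, adjusted p = 0.000161) and in neural crest or neuroendocrine-like cells (1.74 and 3.88 CPM, 0.00538).

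The 3 germ cell-like clusters differed in several of these genes, in the same direction in both libraries. Cluster 11, with 635 cells and TOP2A at 436 and 342 CPM, had 61.5 and 55.3 CPM of FOXM1, 40.5 and 37.6 CPM of SOX8, 7.77 and 9.44 CPM of FOXQ1 and 57.1 and 59.0 CPM of SOX17. Cluster 15, with 436 cells and TOP2A at 28.4 and 55.6 CPM, had 14.8 and 22.5 CPM of FOXM1, 10.7 and 14.0 CPM of SOX8, 0.289 and 1.69 CPM of FOXQ1 and 40.2 and 37.4 CPM of SOX17. FOXM1, SOX8, FOXQ1 and SOX17 were thus lower in cluster 15, with intervals that did not overlap in either library. GATA2 had the opposite order, with 53.7 and 42.4 CPM in cluster 11 and 101 and 142 CPM in cluster 15. FOXJ2, at 57.1 and 59.4 CPM against 118 and 106 CPM, and FOXO4, at 56.9 and 62.4 CPM against 99.3 and 88.2 CPM, followed GATA2. SOX21 did not separate the clusters, at 7.77 and 9.85 CPM in cluster 11 and 7.24 and 11.2 CPM in cluster 15. Cluster 21 had 170 cells with a median of 2849 UMIs, its intervals were wide, and it lay nearer to cluster 11 for SOX8, GATA2 and FOXQ1. These differences were not tested, and the cell cycle gene TOP2A moved with them.

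**Figure D3:**
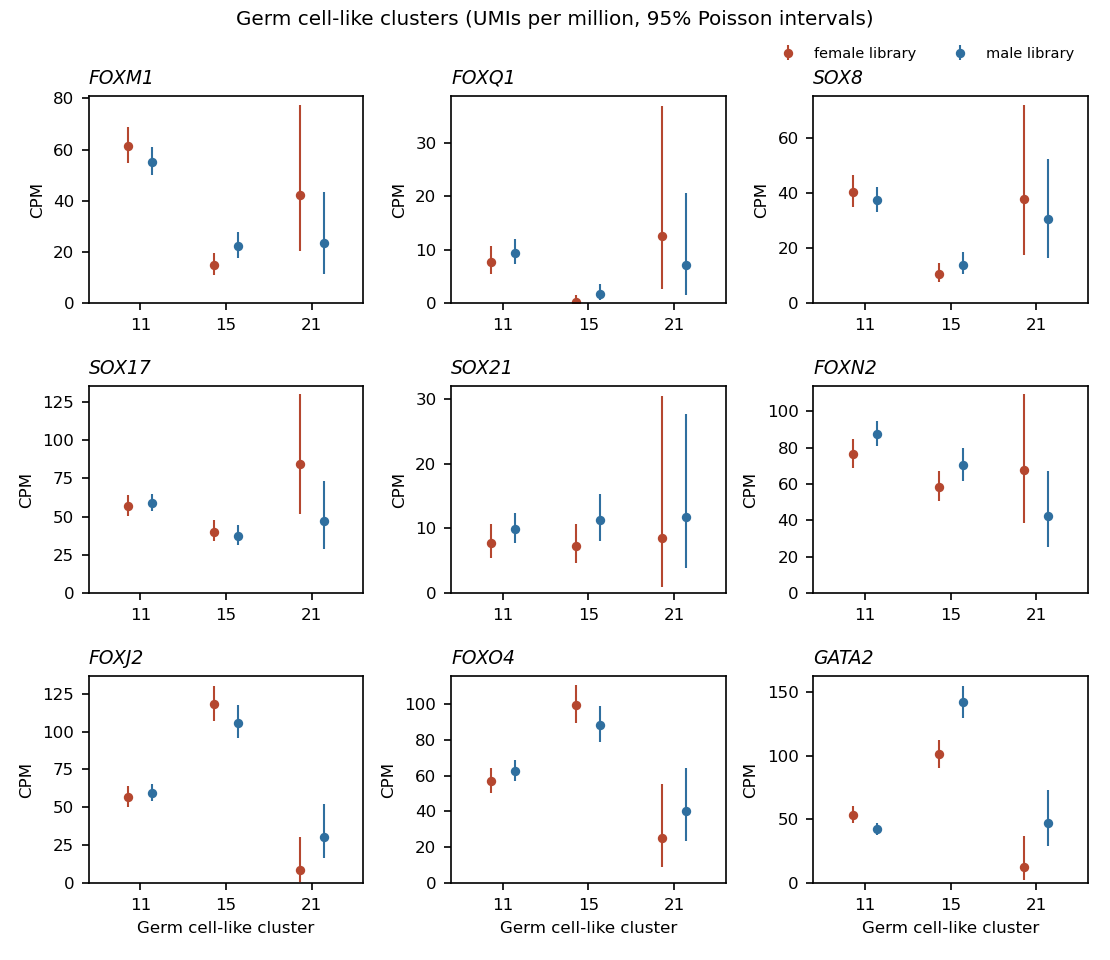
CPM (vertical axes, starting at 0) of 9 genes in the germ cell-like clusters 11, 15 and 21, with 1 point per library and 95% exact Poisson intervals. FOXM1, FOXQ1, SOX8 and SOX17 are lower and FOXJ2, FOXO4 and GATA2 higher in cluster 15 than in cluster 11, in both libraries.

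The neural crest or neuroendocrine-like cluster was split by these genes in a way the class levels hide. Of its 111 female and 74 male cells, 48 and 36 had a UMI of SOX10, the glial and neural crest factor, and none of TH, the tyrosine hydroxylase of catecholamine cells. TH without SOX10 was seen in 52 and 32 cells, both in 2 and 0, and neither in 9 and 6. SOX8 was at 364 CPM (324 to 408) in female and 314 CPM (268 to 366) in male SOX10 cells and at 10.3 and 6.48 CPM in TH cells. SOX5 was at 288 and 272 CPM in SOX10 cells and 12.9 and 21.6 CPM in TH cells, and SOX6 at 107 and 148 CPM against 19.4 and 13 CPM. FOXD3, a specifier of the neural crest, had 17 UMIs in female and 27 in male SOX10 cells, at 21.1 and 51.7 CPM, and none in TH cells, which allows up to 3.88 and 6.48 CPM there. The FOXD3 level in SOX10 cells was 5.45-fold above this limit in the female and 7.98-fold above it in the male library. These folds leave out the counting error of the SOX10 cells, whose intervals were 12.3 to 33.8 and 34.1 to 75.3 CPM.

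GATA2 and SOX11 had the reverse order. GATA2 was at 867 CPM (803 to 935) in female and 1162 CPM (1066 to 1265) in male TH cells and at 23.6 and 7.66 CPM in SOX10 cells. SOX11 was at 385 and 424 CPM in TH cells and at 137 and 105 CPM in SOX10 cells. The intervals of the 2 kinds of cells did not overlap for SOX5, SOX6, SOX8, SOX11 or GATA2 in either library. Since the cells were divided by UMIs of SOX10 and TH, 2 genes outside the 46, these levels are a description and were not tested. FOXD3 passed the filter on low sums through this class, which held 19 female and 28 male of its 52 UMIs, so no test of it is given.

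**Figure D4:**
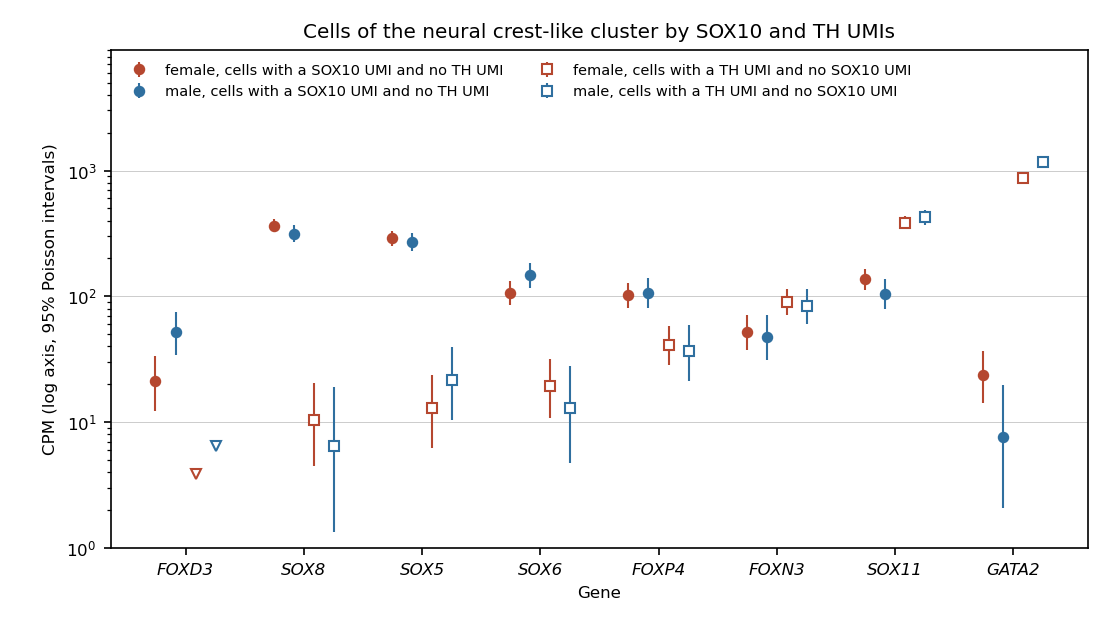
CPM (log axis) of 8 genes in cells of the neural crest or neuroendocrine-like cluster with a SOX10 UMI and no TH UMI (filled circles) or a TH UMI and no SOX10 UMI (open squares), by library, with 95% exact Poisson intervals. Triangles mark the level of 3 UMIs where FOXD3 had none. SOX8, SOX5 and SOX6 are higher in SOX10 cells, and GATA2 (867 and 1162 CPM) and SOX11 in TH cells.

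In 210 pairs of a gene and a class with at least 30 UMIs, the ratio of male over female was under 1.5-fold in either direction in 181, with 5 CPM added to both levels, and its exact binomial interval held 1 in 131. The median log2 ratio was 0.07. A pair was singled out when the ratio with 5 CPM added was at least 2-fold and the interval of the ratio of the levels themselves left out 1. This held for 7 pairs, 5 with the male and 2 with the female library higher. The ratios printed below have nothing added, and the added 5 CPM keeps out low genes: with 1 CPM added, 7 pairs were higher in the female library. With 1 library per sex these 7 have no replicate check. Over all counted genes, the shares past the rule in the classes without such a pair overlapped those given below for the classes with one. They were 1.06% male-higher and 0.166% female-higher in endothelial-like, 0.395% and 0.279% in epithelial-like, and 0.284% and 0.0947% in erythrocyte-like cells. Germ cell-like cells had 0.452% and 0.167%, macrophage-like cells 1.85% and 0.738%, and the cluster led by SLC12A1 2.44% and 1.37%.

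In supporting-like cells 1 gene passed this rule in the male and 1 in the female library, in a class where 2.15% of all counted genes were male-higher and 1.26% female-higher by the same rule. FOXL3 had 685 UMIs in male and 58 in female supporting-like cells, a ratio of 4.90 (3.74 to 6.52). SOX11 had 1368 and 1651 UMIs, a ratio of 0.344 (0.320 to 0.369). FOXC2, GATA3 and FOXM1 had ratios of 0.346 (0.266 to 0.448), 0.397 (0.310 to 0.507) and 0.462 (0.385 to 0.555) in these cells and missed the rule through the added 5 CPM. FOXP4 in the cluster led by CYP17A1, at 0.496 (0.374 to 0.646), and in that led by SLC12A1, at 0.494 (0.250 to 0.945), missed it in the same way. So did FOXL3 in interstitial-like, at 2.74 (1.49 to 5.44), and epithelial-like cells, at 2.75 (1.54 to 5.13), and FOXC2 in epithelial-like cells, at 2.28 (1.56 to 3.39). FOXRED2, at 0.387 (0.130 to 0.962), and FOXO6, at 0.479 (0.212 to 0.989), missed it in neural crest or neuroendocrine-like cells. The supporting-like class holds cluster 4, led by COL8A1 and PRSS35 among genes with a symbol, with 73 female and 1422 male cells. Its clusters 7 and 12 hold 566 and 273 female and 532 and 264 male cells. Without cluster 4 SOX11 was at 191 and 133 CPM in female and in male cells, a log2 ratio of -0.50 in place of -1.47, and FOXL3 at 6.72 and 21.8 CPM, 1.19 in place of 1.69. By cluster, SOX11 was at 165 and 28.9 CPM in female and male cells of cluster 4, 214 and 167 CPM in cluster 7 and 157 and 86.0 CPM in cluster 12. FOXL3 was at 5.76 and 38.0 CPM in cluster 4, 8.86 and 16.6 CPM in cluster 7 and 3.49 and 29.1 CPM in cluster 12. Both genes kept their direction in each of these clusters, and the part of the uneven cell numbers of cluster 4 in the class values was not tested beyond leaving it out. For FOXC2, GATA3 and FOXM1 the part of uneven cluster sizes in the class ratios was not tested. TOP2A, high in cluster 12, was at 410 (female) and 170 CPM (male) in the class. The levels given above for FOXM1 in cluster 12 and for GATA3 in cluster 7 lay closer together than their class levels. In cluster 4 GATA3 was lower in the male library, and in cluster 7 FOXM1 was higher there.

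In interstitial-like cells FOXS1 was higher in the male library, with a ratio of 2.35 (2.03 to 2.72), where 0.463% of counted genes were male-higher and 0.195% female-higher. It was at 20.2 and 59.7 CPM in female and in male cells of cluster 2, at 13.9 and 43.5 CPM in cluster 9 and at 21.4 and 27.5 CPM in cluster 5. At resolution 1.2, 1 interstitial-like cluster had FOXS1 among its leading genes and held 218 female and 634 male cells. Another, without FOXS1 among them, held 643 female and 545 male cells. The part of such uneven cell numbers in the FOXS1 ratios was not tested. In the free RNA of the male library FOXS1 was at 17.6 CPM, and in that of the female library at 5.45 CPM. GATA5 was higher in male cells of the cluster led by CYP17A1, with 63.7 CPM in 120 male and 26.1 CPM in 1068 female cells, a ratio of 2.44 (1.86 to 3.16), where 2.07% of counted genes were male-higher and 1.97% female-higher. GATA5 also differed in epithelial-like cluster 1, with a ratio of 2.15 (1.99 to 2.32), though not by 2-fold in the whole class. At resolution 1.2, 1 epithelial-like cluster with TNC among its leading genes held 536 female and 1073 male cells. Another, led by CNTN1 among genes with a symbol, held 639 female and 9 male cells. The part of such uneven cell numbers in the cluster 1 ratio of GATA5 was not tested.

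The remaining pairs rest on few UMIs. FOXD3 in neural crest or neuroendocrine-like cells had 28 male and 19 female UMIs, a ratio of 2.47 (1.33 to 4.68), where 0.924% of counted genes were male-higher and 0.662% female-higher. In steroidogenic-like cells, with 41 male and 158 female cells, 2.68% of counted genes were male-higher and 2.75% female-higher. SOX11 had 34 male and 52 female UMIs there, a ratio of 2.47 (1.55 to 3.88), and GATA3 had no male and 34 female UMIs, with an upper limit of the ratio of 0.433. The plot of ratios by class shows these 7 pairs among the 210.

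**Figure D5:**
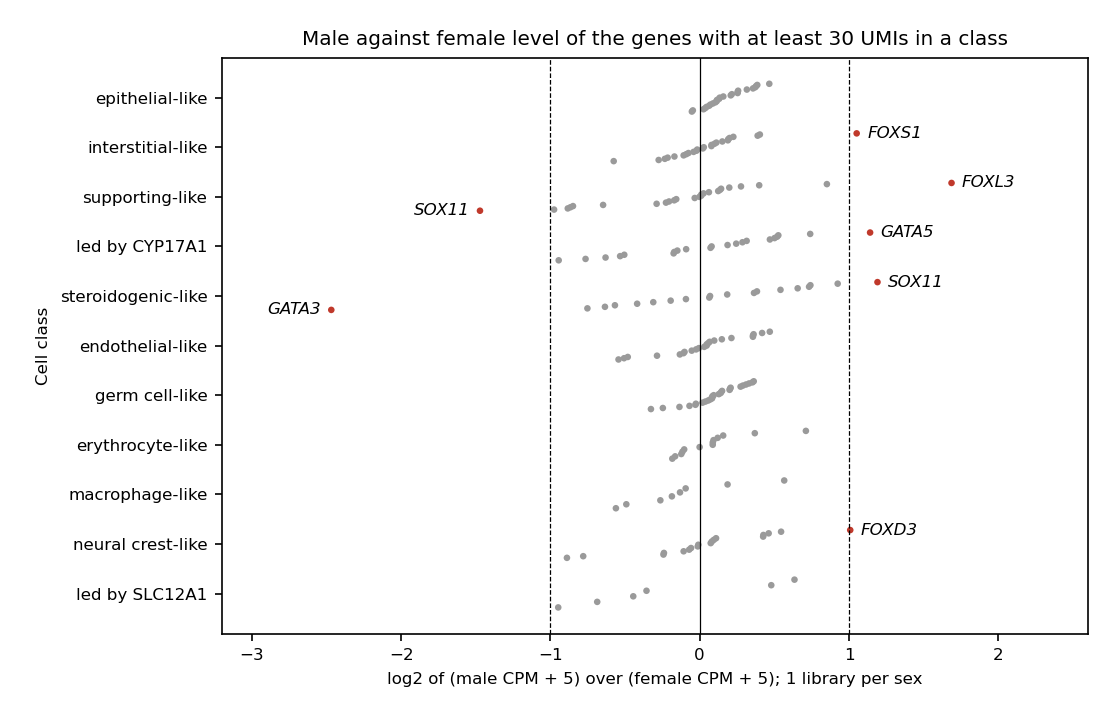
Log2 of male over female CPM, with 5 CPM added to both, for each gene with at least 30 UMIs in a class (points, stacked by value within each class for display). Dashed lines mark 2-fold. The 7 pairs past the rule are in red and named, and 181 of 210 points lie within 1.5-fold.

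GATA3 had its highest level in cells that could not be tested. It was at 82.7 CPM (66.7 to 101) in the 93 male mesonephric tubule-like cells, where FOXO1 was at 21.3 CPM. The 262 male cells led by PRSS35 had 154 CPM of GATA4, 287 CPM of GATA6, 120 CPM of GATA5 and 76.3 CPM of SOX6, and 0.994 CPM of GATA3. These values have no counterpart in the female library, which held 11 cells led by PRSS35 and no tubule-like cell.

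A list of 25 partner, cofactor and target genes was read from the same test, and 21 of them were in the table. In endothelial-like cells 6 were higher and 4 lower, beside 18.2% and 10.8% of all tested genes, with LMO2 at 1128 and 1172 CPM (log2 difference 5.87 ± 0.19, adjusted p = 1.44e-13, edgeR) and TAL1 at 13.2 and 14.5 CPM (1.68e-08), beside GATA2. Both were also called in erythrocyte-like cells (4.52e-13 and 2.22e-11). The FOG gene ZFPM2 was at 30.9 and 30.5 CPM in interstitial-like, 25.1 and 23.3 CPM in epithelial-like and 24.8 and 34.7 CPM in endothelial-like cells, all called, and fell in steroidogenic-like cells to 2.67 and 2.52 CPM. ZFPM1 was called in epithelial-like, supporting-like and erythrocyte-like cells.

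In supporting-like cells 13 of the 21 were higher and 1 lower, beside 15.5% and 5.94% of all tested genes. In the cluster led by CYP17A1 11 were higher and 1 lower, beside 15.6% and 8.27%, and the list holds CYP17A1 itself. Unlike the FOX, GATA and SOX genes described here, the genes of the list were not kept out of the clustering. The list also holds CYP19A1, by which the study names supporting cells, and CYP17A1 and STAR, by which it names steroidogenic cells. All 3 were among the markers used here for the same classes. The counts in the supporting-like and steroidogenic-like classes and in the cluster led by CYP17A1 therefore partly restate how the classes were drawn and named. In the other classes the counts may do so through the clustering. NR5A1, a regulator of steroidogenic genes that acts with GATA4 in the mouse, was at 215 and 395 CPM in the cluster led by CYP17A1 (log2 difference 3.58 ± 0.19, adjusted p = 8.11e-10, edgeR) and at 334 and 335 CPM in steroidogenic-like cells (3.68 ± 0.20, 4.94e-10), the first with high GATA4 and the second with high GATA5. RUNX1 was called in macrophage-like cells at 179 and 191 CPM, in steroidogenic-like cells at 52.0 and 111 CPM and in germ cell-like cells at 33.6 and 33.7 CPM. In germ cell-like cells it was the 1 gene of the list called higher, with 12 lower, among them NR5A1, WT1 and NR2F2, beside 36.2% and 22% of all tested genes. In epithelial-like cells 7 were higher and 2 lower, beside 16.7% and 6.01%, and in interstitial-like cells 6 and 3, beside 19.3% and 7.5%. Erythrocyte-like cells had 5 and 4, beside 15.5% and 12.4%, and steroidogenic-like cells 8 and 2, beside 11.9% and 5.64%. Macrophage-like cells had 3 and 6, beside 16.8% and 13.6%, neural crest or neuroendocrine-like cells 1 and 5, beside 17.8% and 10.9%, and the cluster led by SLC12A1 1 and 0, beside 9.39% and 9.8%.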

How the data were processed

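Single-cell libraries of 1 female and 1 male pool of gonads were analysed. The authors deposited UMI counts per gene and barcode from 10x 3′ libraries, with Cell Ranger 5.0.0 named in the submitters' processing notes, and both libraries stand in 1 count table. The study's methods name the zebra finch reference bTaeGut1_v1, and the genes carry Ensembl identifiers. Barcode suffixes were assigned to the sexes from the study's naming of its batches, and 0 columns of other samples were left out.

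Barcodes with at least 2000 UMIs were clustered with Seurat 5.3.0 (2000 variable genes without the 46 genes, 20 components, resolution 0.8) in R 4.3.3. A cluster was named when at least 3 markers of a class were raised 1.5-fold. Scrublet marked at most 1 cell per library, which is no working result, so doublets were left in. The libraries shared 18 barcodes. Barcodes with at most 100 UMIs gave the free RNA. Sums per class and library were compared with edgeR 4.0.16 (quasi-likelihood, TMM, filter on low sums), and DESeq2 1.42.0 was an alternative. edgeR was tested on simulated data. The sexes were compared by ratios with exact binomial intervals for genes with at least 30 UMIs. Intervals and floors (3 UMIs) cover counting error only.

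The 46 genes, the partner list and the classes were chosen with earlier results of these data known. Genes with at least 20 CPM in both libraries of a class were named with values, as were genes past the rule for the sexes. Of the genes called in a class, up to 4 with the largest change were given in full. FOXL2, FOXQ1, FOXI2, SOX21, SOX30 and the division of the neural crest or neuroendocrine-like cells were added after their values were seen, and so was the alternative without cluster 4. The sums pair by library, since each library gave all classes of 1 pool. Over 55 pairs of classes their deviations correlated with a median of 0.138 (0.00833 to 0.612). Other alternatives changed scaling, filter, resolution, the UMI minimum, doublets and free RNA, or left out a library. The values of 1 of the 46 genes are not reported here.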

Additional observations from a re-analysis of the deposited data

Results flagged for a closer look

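SOX11 differed between the male and female libraries in opposite directions in 2 classes. The log2 ratio of male over female was 1.19 in steroidogenic-like cells (34 male and 52 female UMIs) and -1.47 in supporting-like cells (1368 and 1651 UMIs). Without supporting-like cluster 4, which held 73 female and 1422 male cells, the supporting-like log2 ratio was -0.50. The difference between the classes was not tested, since each sex had 1 library.

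GATA3 gave a signal in cells outside the comparisons. It was at 82.7 CPM (66.7 to 101) in the 93 male mesonephric tubule-like cells, which had no female counterpart.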

How the results depend on the processing

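No paired analysis of the sexes was possible because each sex had 1 library. The class results followed were the up to 4 genes per class with the largest change and at least 20 CPM in both libraries, 36 in all. Of these, 33 kept their call under every alternative in which their class was compared. They also kept their direction without either library, where no test was run. The 7 differences between the sexes kept their direction. FOXP4 in the cluster led by CYP17A1 was -0.074 without the female library and 0.74 without the male library, 0.50 with DESeq2 (adjusted p = 0.0989) and 0.55 at resolution 1.2 (0.0636). SOX6 in erythrocyte-like cells was 0.38 without TMM (adjusted p = 0.113, edgeR). FOXK1 in macrophage-like cells was 0.58 and 0.71 with at least 1000 and 4000 UMIs (adjusted p = 0.1 and 0.0969, edgeR). Of 121 calls, 9 were lost without TMM, 7 with DESeq2 and 6 with free RNA subtracted. Among the last were GATA2 in the cluster led by CYP17A1 and in steroidogenic-like cells and FOXS1 in germ cell-like cells. Their standard errors could not be used, so these losses do not by themselves show weaker differences. The log2 difference of GATA2 moved from -2.40 to -1.64 in steroidogenic-like cells and from -4.42 to -4.36 in the cluster led by CYP17A1. That of FOXS1 in germ cell-like cells moved from -1.97 to -2.49. A replicate block for the library lost 1 call, that of GATA2 in the cluster led by SLC12A1. With this block 88 pairs were higher and 47 lower, against 77 and 44. Without TMM FOXN2, GATA2 and FOXO4 turned to -1.28, -1.17 and -1.61 in erythrocyte-like cells (adjusted p = 2.07e-06, 0.0196 and 4.99e-06, edgeR). These calls come on top of the 9 lost without TMM. FOXK2 turned to 0.09 in germ cell-like cells and is among the 9. The cause of these turns was not tested. With at least 1000 UMIs, 98 of the 121 pairs had a class to compare.

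Of the pairs past the rule for the sexes, 2 were higher in the female library. This count was 7 with 1 CPM added, 1 with at least 100 UMIs, 4 at resolution 1.2, with at least 1000 or 4000 UMIs or with free RNA subtracted, and 5 without the highest doublet scores. The 5 higher in the male library were 3 with at least 100 UMIs and 3 with TMM scaling. In 155 pairs at least 10% of cells had a UMI in both libraries, and in 54 after thinning to 2000 UMIs. Low sums limit FOXL2, FOXQ1, FOXI2, SOX21, SOX30 and FOXD3, and the SOX30 calls in endothelial-like and epithelial-like cells were lost with DESeq2.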
